A study of Drosophila melanogaster with 23 samples.

Results

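Heterochromatin protein 1 (HP1) binds methylated lysine 9 of histone H3, and Hi-C maps of embryos in which one or the other was targeted were set side by side to ask which folding features separate them. H3K9M embryos carried 2 libraries and HP1-KD embryos 5, so 7 of the 23 libraries of the series and 2 of its 7 pooled maps were compared, and the map of 7 control libraries is given beside them. Hi-C counts how often pairs of DNA segments are crosslinked and ligated to each other. All embryos were hand-sorted at stage 5, after 1 h of egg collection and 2 h of ageing, which is the onset of zygotic transcription. Hi-C measures neither HP1 nor the histone mark, so the loss of either was not checked in these maps. The study itself reports depletion of the mark in H3K9M embryos and reduced HP1 binding in both groups. It describes more HP1 kept on the chromosome arms in H3K9M than in HP1-KD. The maps thus do not set loss of the mark alone against loss of HP1 alone.

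HP1-KD embryos came from mothers whose female germ line expressed a short hairpin RNA against HP1 through the Gal4-UAS system, which left part of the maternal HP1 in place. H3K9M embryos came from mothers that expressed histone H3.3 with lysine 9 changed to methionine from a pUASP transgene under the same germ-line driver. Control embryos came from a separate stock without either construct. HP1-rescue embryos, 3 libraries in 1 map that is read below at single places only, carried the HP1-KD construct and a Flag-HA-HP1 transgene. Each genotype is its own stock, so genotype and stock background cannot be told apart. Each group is 1 pooled map: no value below has a replicate error, no test was made, and intervals cover counting error only. The label carried by the pooled HP1-KD map could mean that some libraries stayed outside it, although 5 libraries are listed for the group.

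HP1 proteins read methylated lysine 9 of histone H3 through a chromodomain and can recruit the enzymes that write the mark, so mark and reader maintain each other in constitutive heterochromatin. In *Drosophila* that heterochromatin surrounds the centromeres and covers most of the small chromosome 4. A lysine-to-methionine histone acts dominantly, because it interferes with the methylation of unmutated histones by the same class of enzymes. HP1 also binds euchromatic sites along the arms, and in early nuclei the arms extend side by side from clustered centromeres, the Rabl arrangement.

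Maps were read in 10-kb bins of the dm6 genome, of which 13147 of 13391 had enough contacts in every embryo map: 11559 on the 5 long arms, 1458 pericentromeric and 130 on chromosome 4. Pericentromeric regions were the centromere-proximal runs of repeat-rich sequence, 2L from 22200001, 2R to 4800000, 3L from 23000001, 3R to 4200000 and X from 23000001. Recovered whole contacts numbered 63586396 in H3K9M, 186773780 in HP1-KD and 299633630 in control. A contact value below is the balanced contact per pair of bins, after an iterative correction that gives every bin of a map the same total, and a log2 ratio is H3K9M over HP1-KD. In 25 bins the share of whole-contact ends differed 2-fold or more between the maps, 18 with more in HP1-KD and 7 with more in H3K9M, and these bear on chromosome 4 below. Other choices of the total shift every contact ratio together, by 0.09 when contacts under 20 kb are left out of it and by -0.14 when only contacts between chromosomes are used.

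Contact fell away with distance in different ways in the H3K9M and HP1-KD maps. H3K9M embryos held more contacts under about 0.1 Mb, and HP1-KD embryos held more from about 0.2 to 8 Mb. Beyond 15 Mb H3K9M was again higher on all 5 arms with the deposited total. With scaling to contacts between chromosomes, a shift of -0.14, the pooled sign turned near 15 Mb. At 21.5 Mb the log2 ratios of 0.06 on 2R, 0.10 on 3L and 0.08 on X would turn with it as well. Between 100 kb and 1 Mb the scaling exponent, the slope of log10 contact on log10 distance, was -1.31 in H3K9M, -1.03 in HP1-KD and -1.51 in control. The slope was thus steeper in H3K9M by 0.28, with a range over arms of 0.27 (3R) to 0.29 (2R), and the H3K9M map lay between HP1-KD and control. From 1 to 10 Mb the order of the maps turned around, with exponents of -1.24 in H3K9M, -1.50 in HP1-KD and -1.12 in control.

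At 20 to 100 kb, the scale of single topological domains, the mean contact was 109 in H3K9M, 92.2 in HP1-KD and 117 in control. The log2 ratio of 0.24 varied little by arm, from 0.24 on 3R to 0.25 on 3L. At 0.5 to 2 Mb, the scale of several domains, the mean contact was 1.69 in H3K9M, 2.85 in HP1-KD and 1.23 in control. HP1-KD thus exceeded H3K9M 1.68-fold there, a log2 ratio of -0.75 that rested on 4052232 and 20544169 whole contacts. Chromosome 2R differed most in this range (-0.83) and 2L least (-0.70). The difference between the maps was largest at 1.4 Mb (log2 ratio -0.81) and was -0.01 at 13 Mb. At 10 Mb or more the maps were close, at 0.0496 in H3K9M and 0.0490 in HP1-KD, both above the 0.0385 of control, and the sign of that ratio (0.02) differed among arms and with the choice of total.

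The same contrast appears in shares of all whole contacts within the long arms. Contacts at 0.5 to 2 Mb made up 7.47% of them in H3K9M, 12.8% in HP1-KD and 5.34% in control. Contacts at 20 to 100 kb made up 27.3% in H3K9M, 23.6% in HP1-KD and 29.1% in control. In both ranges H3K9M departed from control in the same direction as HP1-KD and by less. Both departures share the control map, so they are given as separate values only.

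**Figure D1:**
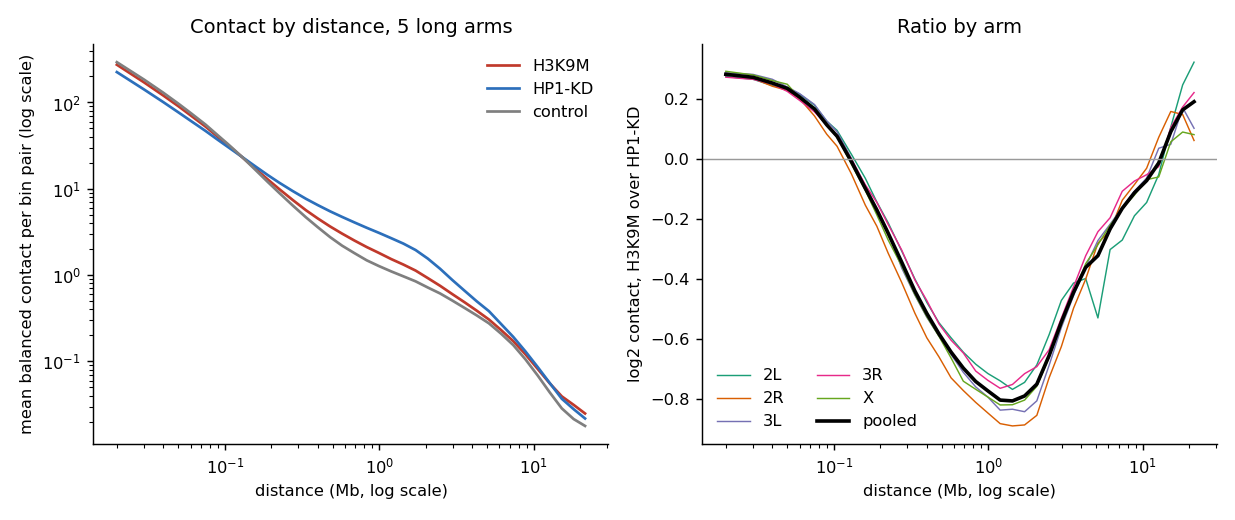
Left, mean balanced contact per pair of 10-kb bins against distance (both log scales) in the H3K9M, HP1-KD and control maps over the 5 long arms; right, the log2 ratio of H3K9M over HP1-KD per arm and pooled. The pooled ratio starts at 0.28 at 20 kb, passes 0 near 0.13 Mb, is lowest at -0.81 near 1.4 Mb and returns above 0 beyond 13 Mb, positions of 0 that depend on the total used for scaling, and the line of 2L dips to -0.53 at 5.1 Mb.

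The distance signature was spread over the arms rather than carried by a few places. Of 116 windows of 1 Mb, 116 had less contact at 0.5 to 2 Mb in H3K9M by a log2 ratio of 0.25 or more, which is 100% of the windows. The window ratios ran from -1.00 in the distal window of 3L (3L:1-1000000, 107 protein-coding genes) to -0.37 at 3R:26000001-27000000 (102 protein-coding genes). In that distal 3L window the contact was 1.64 in H3K9M, 3.27 in HP1-KD and 1.05 in control. The distal window of 2L (-0.94) and the next window of 3L (-0.91) followed, while the windows with the smallest difference besides 3R:26000001-27000000 were its neighbour (-0.41) and 2L:17000001-18000000 (-0.42).

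At 20 to 100 kb, 116 of 116 windows were higher in H3K9M, and 48 passed 0.25, which is 41.4% of the windows. Many windows lie close to that value, and with the 2 other totals 115 and 0 windows passed it while 116 stayed higher in H3K9M. The window with the largest ratio was X:21000001-22000000, at 0.35, with contact of 101 in H3K9M, 79.2 in HP1-KD and 97.8 in control. It lies outside the pericentromeric region used here. The study's border on X, at 21500000, would place the proximal part of this window inside. The windows 3L:10000001-11000000 (0.30) and 2L:14000001-15000000 (0.29) came next. The 2 lowest were the distal windows of 2L (0.16) and 3L (0.16), ahead of 2L:21000001-22000000 (0.18), so both chromosome ends stood out in both ranges, with the smallest short-range and the largest mid-range difference. As a description over the 116 windows, which share libraries and balancing, the short-range ratio was lower where protein-coding genes were denser (Pearson's r -0.52, Spearman's rho -0.50, by arm -0.77 to -0.26).

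**Figure D2:**
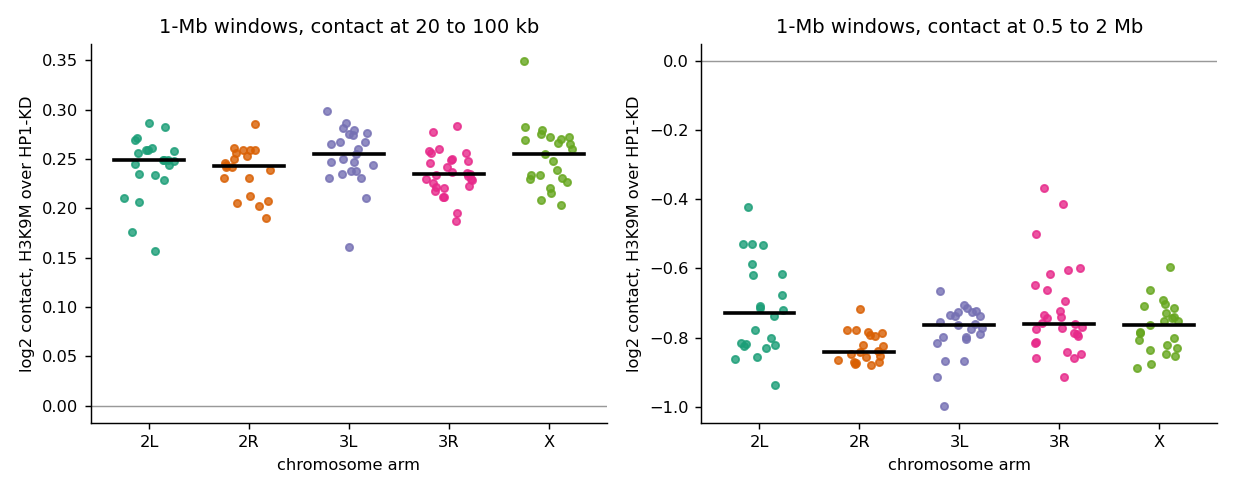
Each point is a 1-Mb window of an arm and gives the log2 ratio of H3K9M over HP1-KD for contact at 20 to 100 kb (left) or 0.5 to 2 Mb (right), with a black line at the median of the arm. All 116 windows lie above 0 on the left and at -0.37 or lower on the right.

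One stretch of 2L departed from the smooth curve. At 5.1 Mb the ratio was -0.53 on 2L and between -0.29 and -0.24 on the other 4 arms. When pairs of 500-kb blocks 2 to 8 Mb apart were compared with the median of pairs at the same distance, the 12 lowest of 2226 pairs all joined 2L:5000001-8000000 with 2L:11500001-13500000. The strongest pair, 2L:7000001-7500000 with 2L:12000001-12500000, had a contact of 0.267 in H3K9M, 1.91 in HP1-KD and 0.261 in control. H3K9M and control were thus alike at this pair (log2 ratio 0.04) and HP1-KD stood apart from control (2.87), with 1082, 20393 and 4706 whole contacts behind the values. On 2L, 30 of 414 pairs reached a log2 ratio of -1 or lower, and on each other arm 3 to 5 of 378 to 558 did. Neighbouring blocks, 2L:6500001-7000000 with 2L:11500001-12000000 among them (0.219, 0.822 and 0.184), showed the same order of maps at a lower level. In HP1-rescue embryos the strongest pair had 1.22 on 4732 whole contacts, and at the 12 pairs HP1-rescue was above control in 12 and nearer to HP1-KD than to control on the log2 scale in 11. The strong contact was thus also present where HP1 was supplied by a transgene in the knockdown background, and the study describes an inversion on this arm in the HP1-KD and HP1-rescue embryos. Among the pairs that were highest in H3K9M relative to their distance, 2L:11500001-12000000 with 2L:17500001-18000000 had 0.792 in H3K9M, 0.530 in HP1-KD, 0.687 in control and 0.729 in HP1-rescue. That pair shares a block with the low pairs, and HP1-KD was the lowest of the maps there. The blocks were chosen after their values were seen.

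Domain boundaries were deeper in H3K9M than in HP1-KD. Boundaries separate neighbouring topological domains, and in early *Drosophila* embryos many lie at the promoters of genes that are active in all cells. They were taken from the control map, as 731 minima of contact across a 100-kb square, and the depth is the log2 loss of contact at the boundary relative to 100 kb on either side. The mean depth was 0.63 in H3K9M, 0.40 in HP1-KD and 0.77 in control. The mean difference of 0.23 had an SD of 0.20 over boundaries and lay between 0.22 and 0.24 on every arm. Of the 731 boundaries, 647 were deeper in H3K9M, 403 by 0.2 or more (55.1%), and 13 were shallower by 0.2 or more (1.78%).

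The difference, in log2 units, grew with the depth of a boundary in control. With boundaries split into 3 classes of control depth, in the deepest class (244 boundaries) the mean depth was 1.16 in H3K9M, 0.75 in HP1-KD and 1.40 in control, and 244 of 244 were deeper in H3K9M. In the middle class the means were 0.63, 0.40 and 0.76, with 235 of 243 deeper in H3K9M. In the shallowest class they were 0.11, 0.06 and 0.14, and 168 of 244 were deeper in H3K9M. The HP1-KD mean was 64.9% of the H3K9M mean in the deepest class, 63.3% in the middle and 53.8% in the shallowest. As a share of depth the difference thus did not grow from the middle to the deepest class. Control depths in the shallowest class ran from -1.16 to 0.50, so its means mix signs and its share is not a reliable measure. Boundary bins with more gene starts also differed more, from 0.17 in the 75 bins with no gene start to 0.26 in the 227 bins with 4 or more. Their mean depth in control was higher as well, 0.67 and 0.81 in these 2 sets.

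By window, 115 of the 115 windows with 3 or more boundaries had a deeper mean in H3K9M. The highest was again X:21000001-22000000, with mean depths of 1.43 in H3K9M, 0.93 in HP1-KD and 1.52 in control (difference 0.50), ahead of 3R:11000001-12000000 (0.48) and 3L:10000001-11000000 (0.46). The lowest was 2L:21000001-22000000, which holds the histone gene cluster, with 0.26, 0.23 and 0.32 (0.03), below 2L:17000001-18000000 (0.07) and 2R:5000001-6000000 (0.07). The study's borders would place 2R:5000001-6000000 and the proximal part of X:21000001-22000000 in pericentromeric regions. Boundary depth was not read with those borders. Of the windows named for short-range contact, X:21000001-22000000 and 3L:10000001-11000000 stood at the top of this list too, and 2L:21000001-22000000 at the bottom. The others did not, with 0.09 for 2L:14000001-15000000 from the upper end, and 0.33 for 2L:1-1000000 and 0.16 for 3L:1-1000000 from the lower. Over 115 windows the 2 measures were weakly related (Pearson's r 0.23, Spearman's rho 0.17, by arm -0.34 to 0.69).

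Calling boundaries separately on each map, thinned to the depth of H3K9M, gave 712 in H3K9M, 581 in HP1-KD and 765 in control. Of the HP1-KD boundaries 93.8% had a counterpart within 20 kb in H3K9M, and of the H3K9M boundaries 76.8% had one in HP1-KD. Of the control boundaries 89.0% had a counterpart in H3K9M and 71.5% in HP1-KD. The boundaries called in HP1-KD were therefore mostly also called in H3K9M, where further ones were called. The same prominence of 0.2 was required in each map, so a boundary that is shallower in HP1-KD can miss it. The further ones are thus not shown to be absent from HP1-KD. The share of matches for randomly placed positions was not computed.

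**Figure D3:**
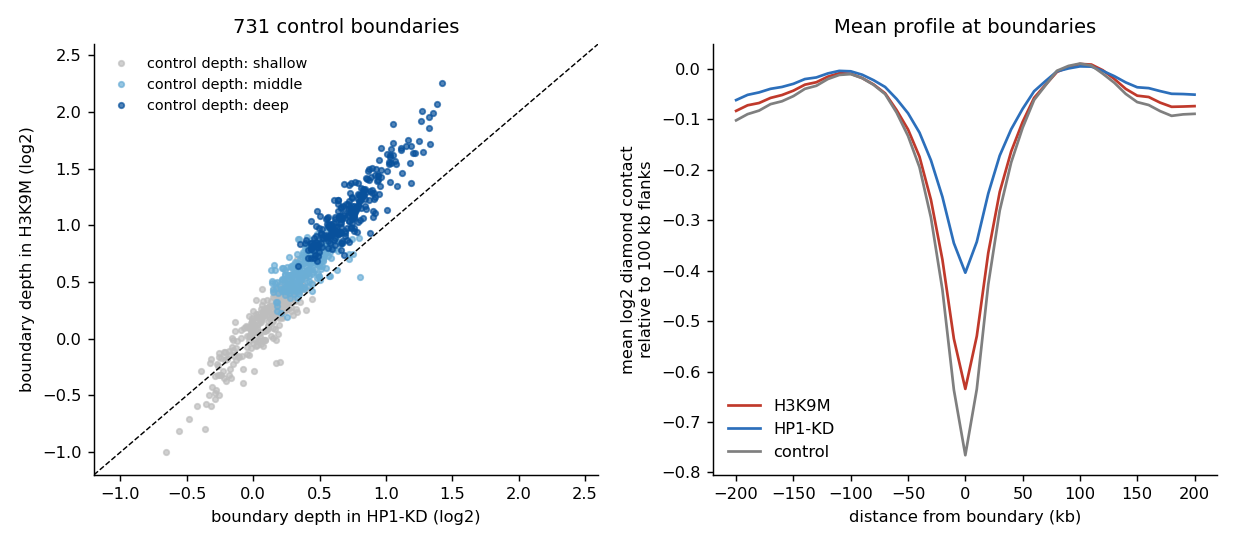
Left, depth (log2) of the 731 control boundaries in H3K9M against HP1-KD, coloured by class of control depth, with the dashed line of equality; right, mean log2 contact of the diamond against distance from the boundary in kb, relative to its flanks. The deepest class lies wholly above the line, and the mean profile reaches -0.63 in H3K9M, -0.40 in HP1-KD and -0.77 in control.

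The 5 boundaries that were deeper in H3K9M by the most were all in the deepest class of control. A pair lies on the proximal X, outside the pericentromeric region used here but inside the study's. The H3K9M depths of this pair were close to control. At X:21600001-21610000, with GCS2alpha, a glucosidase subunit, CG17450 and CG33502, the depth was 1.90 in H3K9M, 1.06 in HP1-KD and 1.92 in control. At X:21620001-21630000, which holds DIP1, coding for a double-stranded RNA binding protein, it was 2.26, 1.43 and 2.33. At 3L:13030001-13040000, with Srrm1, a splicing factor gene, it was 2.01, 1.27 and 2.28.

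The boundary at 3R:11210001-11220000 contains 5 protein-coding genes, among them Tctp, a growth regulator, RpS25, of the small ribosomal subunit, and ZnT86D, a zinc transporter. Its depth was 1.68 in H3K9M, 0.96 in HP1-KD and 2.01 in control. The boundary at 2L:19160001-19170000 lies within brat, a translational repressor that limits neural stem cell growth, and its depth was 1.37 in H3K9M, 0.68 in HP1-KD and 1.49 in control. In each of these 5 bins, chosen for a large difference of H3K9M from HP1-KD, the H3K9M value was nearer to control than to HP1-KD. The means over all 731 boundaries had the same order (0.63 in H3K9M, 0.40 in HP1-KD and 0.77 in control).

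Sequence motifs of boundary-associated factors are shown for boundaries from both ends of the list. The motifs searched on both strands were TATCGATA, the palindrome bound by the insulator protein BEAF-32, GAGAGAG, bound by GAGA factor, CAGGTAG, bound by the genome activator Zelda, and GGTCACAC, bound by the promoter factor M1BP, and none contains another. Capitals mark the motif in these dm6 stretches of the boundary bins, read 5′ to 3′ on the plus strand.
BEAF-32 palindrome at the Tctp and RpS25 boundary, chr3R:11210150-11210179: aacattgaaatTATCGATAcgtgtatagta
BEAF-32 palindrome at the same boundary, chr3R:11215466-11215495: catcgtagtgcTATCGATAcagagttctat
BEAF-32 palindrome at the same boundary, chr3R:11216328-11216357: gctcgcctgccTATCGATAgttggtggtgg
M1BP motif at the same boundary, chr3R:11216540-11216569: ttctgagcaacGGTCACACtcctacgcatg
GAGA motif in the brat boundary, chr2L:19164957-19164985: caaagcagaggGAGAGAGgctggtggccg
Zelda motif in the DIP1 boundary, chrX:21629077-21629105: gactccgggacCAGGTAGtctatgctaat
BEAF-32 palindrome in a boundary that was shallower in H3K9M, chrX:19951522-19951551: atcatcaccatTATCGATAacggcgttttt

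A match describes the letters in the bin and is not a measured binding site. The BEAF-32 palindrome occurred in 21.4% of all arm bins, in 37.5% of the 731 boundaries, in 39.0% of the 403 that were deeper in H3K9M by 0.2 or more and in 36.2% of the 315 that differed by less. The M1BP motif occurred in 19.97% of arm bins, in 36.0% of boundaries, in 42.4% of the 403 and in 28.3% of the 315. GAGAGAG occurred in 65.4% of arm bins, in 68.1% of boundaries, in 71.7% of the 403 and in 62.9% of the 315. CAGGTAG occurred in 40.8% of arm bins, in 51.3% of boundaries, in 53.3% of the 403 and in 49.5% of the 315. Only 13 boundaries were shallower in H3K9M by 0.2 or more. Of these, 23.1% held the BEAF-32 palindrome, 23.1% the M1BP motif, 30.8% CAGGTAG and 84.6% GAGAGAG. Within the deepest class the mean difference was 0.43 in 97 boundaries with the M1BP motif and 0.40 in 147 without it, and in the middle class it was 0.26 in 94 with it and 0.21 in 149 without. For the BEAF-32 palindrome it was 0.40 and 0.41 in the deepest class.

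The 5 boundaries that were shallower in H3K9M by the most belonged to the shallowest class. At X:19950001-19960000 (CG45494, CG43784 and CG12655) the depth was -0.21 in H3K9M, 0.21 in HP1-KD and 0.20 in control. At 3R:26740001-26750000, which overlaps no gene, it was -0.22, 0.17 and 0.16. There the dip in contact was present in HP1-KD and control and inverted in H3K9M. At X:20310001-20320000 (CG1504), 3R:28750001-28760000 (CG10000, CG9997 and aqrs, a gene of the sex peptide pathway of seminal fluid) and 2R:19760001-19770000 (Or56a, an odorant receptor) all depths were below 0, which means that contact was higher at the boundary than beside it. There H3K9M was -0.80, -1.00 and -0.39, HP1-KD -0.36, -0.66 and -0.07, and control -0.82, -1.16 and -0.03. The 2R bin overlaps 18 genes, of which Or56a is the only protein-coding one.

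Contact between the pericentromeric regions of different arms was low in both maps relative to control. The mean contact per bin pair was 0.378 in H3K9M, 0.356 in HP1-KD and 0.470 in control. The log2 ratio of H3K9M over HP1-KD was 0.09 (counting interval 0.08 to 0.09), with a range over arms from 0.00 on X to 0.12 on 3L, and it turned to -0.06 when maps were scaled to contacts between chromosomes. The regions of 3L and 3R, which flank 1 centromere, differed by 0.13 (0.553 in H3K9M, 0.504 in HP1-KD and 0.669 in control), and those of 2L and 2R by 0.03 (0.782, 0.765 and 1.08). Both departures from control exceeded the difference between the maps on the 4 autosomal arms. On X, whose region here is short, the values were 0.138 in H3K9M, 0.138 in HP1-KD and 0.134 in control.

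Contact of the arms with pericentromeric regions differed by partner and by position. With the region of its own arm, an arm had a mean contact of 0.105 in H3K9M, 0.144 in HP1-KD and 0.0790 in control. That log2 ratio of -0.46 ran from -0.55 on 3L to -0.33 on 2R, and such pairs are also contacts at a distance within an arm, where HP1-KD was higher. With the regions of other arms the pooled means were 0.0300 in H3K9M, 0.0293 in HP1-KD and 0.0230 in control, a log2 ratio of 0.03 that was negative on 2R and 3R, positive on 2L, 3L and X, and -0.11 over all arms when scaled to contacts between chromosomes.

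Beneath this small average lay a gradient along the arms. Between 1 and 2 Mb from the pericentromeric border, contact with the pericentromeres of other arms was 0.0909 in H3K9M, 0.102 in HP1-KD and 0.0792 in control. Between 2 and 5 Mb it was 0.0405, 0.0445 and 0.0267. Between 15 and 20 Mb it was 0.0154, 0.0123 and 0.00988. The log2 ratio thus went from -0.17 at 1 to 2 Mb through 0.02 at 5 to 10 Mb to 0.17 at 10 to 15 Mb and 0.33 at 15 to 20 Mb. Over all arms pooled, HP1-KD had more of these contacts between 1 and 5 Mb, and H3K9M had more beyond 10 Mb, under each of the scalings. Within the first 1 Mb the pooled maps were close (0.155, 0.153 and 0.164). By arm the proximal part differed. In windows 2 to 5 Mb from the border, log2 ratios ran from -0.38 to -0.005 on 2R and from -0.51 to -0.06 on 3R. They ran from -0.07 to -0.02 on 2L, from -0.06 to 0.09 on 3L and from -0.29 to 0.05 on X. The 2L values would turn above 0 with contacts under 20 kb left out of the total, a shift of 0.09.

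Over 116 windows the ratio for contact with the pericentromeres of other arms followed the distance from the border with a Pearson's r of 0.70 and a Spearman's rho of 0.76, between 0.59 and 0.91 by arm. Windows share libraries and partners, so this is a description without a test. Of the windows, 38 were higher in H3K9M by 0.25 or more (32.8%) and 7 were lower (6.03%), and with scaling to contacts between chromosomes these counts were 17 and 16. Among the named windows, X:7000001-8000000 had 0.0122 in H3K9M, 0.00775 in HP1-KD and 0.00735 in control (log2 ratio 0.65). The window 3L:4000001-5000000 had 0.0155, 0.0101 and 0.00832 (0.63). Both are distal, 15.5 and 18.5 Mb from the border, and in both HP1-KD lay nearer to control than H3K9M did. Their choice by a high ratio favours that order. The means at 15 to 20 Mb over all arms also had it (0.0154 in H3K9M, 0.0123 in HP1-KD and 0.00988 in control).

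At the other end, 3R:7000001-8000000, 3.3 Mb from the border, had 0.0482 in H3K9M, 0.0688 in HP1-KD and 0.0379 in control (log2 ratio -0.51). The window 2R:7000001-8000000, 2.7 Mb from the border, had 0.0342, 0.0444 and 0.0267 (-0.38). In these proximal windows, chosen for low ratios, the order was control, H3K9M and HP1-KD, as in the means at 2 to 5 Mb. The lowest window, 2R:14000001-15000000 (0.0263, 0.0429 and 0.0312, -0.70), lay outside the gradient, and its ratio was -0.01 without balancing and -0.16 without the 10% of bins of lowest coverage.

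**Figure D4:**
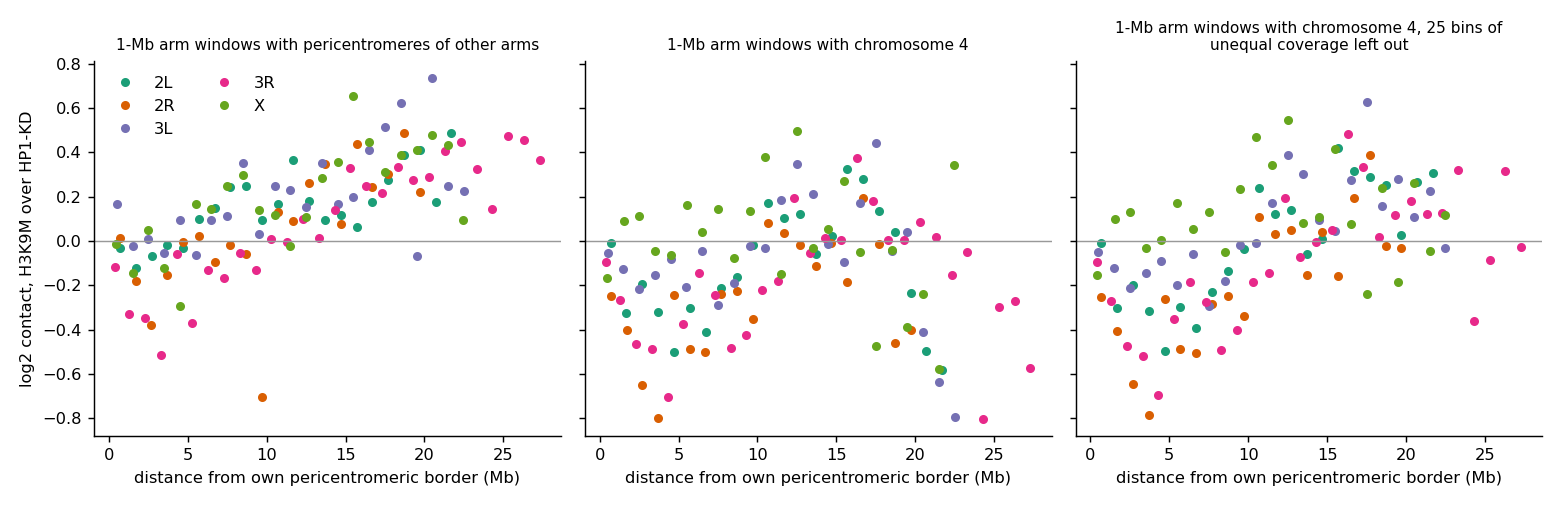
Each point is a 1-Mb window, coloured by arm, and gives the log2 ratio of H3K9M over HP1-KD against its distance from the pericentromeric border in Mb, for contact with pericentromeres of other arms (left), with chromosome 4 (middle), and with chromosome 4 without the 25 bins of unequal coverage (right). The left points climb with distance (r 0.70), the middle ones hardly do (r 0.06), the right ones do so less tightly than the left (r 0.54), and all points would move down by 0.14 with scaling to contacts between chromosomes, which puts the windows near 0 below it.

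Some of the contact between arms and pericentromeres was concentrated in pairs of 100-kb blocks, part of which differed strongly between the maps. Of 148962 such pairs, 480 (0.32%) exceeded 5 times the mean of their window and region with 30 or more whole contacts in some embryo map. Among these, 32 were at least 4-fold higher in H3K9M and 75 at least 4-fold higher in HP1-KD, counts that are not comparable since the minimum of 30 is passed more easily in the deeper HP1-KD map. With a minimum scaled to depth, in the map where the pair was higher, they were 27 and 12, a setting chosen after seeing the data. Pairs without any contact in H3K9M or in HP1-KD have no ratio and were left out of all these counts. The window with the highest ratio, 3L:2000001-3000000 (0.0199 in H3K9M, 0.0120 in HP1-KD and 0.0112 in control, log2 ratio 0.74), drew 24.1% of its whole contacts in H3K9M from a single pair, 3L:2200001-2300000 with 3R:2000001-2100000. That pair had a contact of 3.72 in H3K9M, 0.0183 in HP1-KD and 0.0398 in control, on 630, 3 and 5 whole contacts.

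Other pairs were strong in HP1-KD, such as 2L:8800001-8900000 with 3R:2400001-2500000, at 0.00590 in H3K9M, 0.911 in HP1-KD and 0.00190 in control on 1, 171 and 2 whole contacts. HP1-rescue embryos had 1.81 at this pair on 160 whole contacts, so it was strong in both knockdown maps. A pair of X:18500001-18600000 with 3L:24100001-24200000 was strong in HP1-KD (2.83) and control (4.05) but not in H3K9M (0.0293). For these local differences genotype and stock cannot be told apart. Without the 480 pairs the 3L window fell to 0.30, while 40 windows were higher and 6 lower by 0.25 or more (33 and 6 of them as before), and the correlation with distance was 0.73.

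Genes that lie within pericentromeric heterochromatin and need its chromatin environment for normal expression, such as the classical gene light, were read by the bin of their start. Of 13 such genes 12 lay within the regions used, and 11 of these 12 bins had more contact with the pericentromeres of other arms in H3K9M (median log2 ratio 0.15), as had 65.7% of the 1406 pericentromeric bins with 30 or more contacts in both maps (median 0.09). The bin of lt, a vacuolar sorting gene, had 0.584 in H3K9M, 0.525 in HP1-KD and 0.710 in control (log2 ratio 0.15, counting interval 0.04 to 0.26). The bin of RpL15, a ribosomal protein gene, had 0.451, 0.392 and 0.511 (0.20, interval 0.05 to 0.35). The bin of vtd, which codes for the cohesin subunit Rad21, was the exception, with 0.317, 0.347 and 0.419 (-0.13, interval -0.30 to 0.04). For all 3 genes both maps were below control. The other ratios ran from 0.01 for Dbp80 to 0.23 for Snap25, and a scaling to contacts between chromosomes would lower each by 0.14.

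Chromosome 4 is small and largely heterochromatic, with active genes embedded in chromatin that carries methylated H3 lysine 9 and HP1. Within the chromosome, contact at 20 kb or more averaged 22.4 in H3K9M, 24.1 in HP1-KD and 21.2 in control. The log2 ratio was -0.10 (counting interval -0.11 to -0.10), and -0.01 when contacts under 20 kb were left out of the total. By distance, contact at 20 to 50 kb was 176 in H3K9M, 154 in HP1-KD and 179 in control (0.19), and at 500 kb to 1 Mb it was 7.38, 10.2 and 6.17 (-0.46). The long arms at the same distances had ratios of 0.27 and -0.70. Chromosome 4 thus had the same turn from higher to lower contact in H3K9M, with the turn at a shorter distance (0.02 at 50 to 100 kb against 0.19 on the arms) and a flatter end (-0.43 at 1000 to 1350 kb against -0.80).

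**Figure D5:**
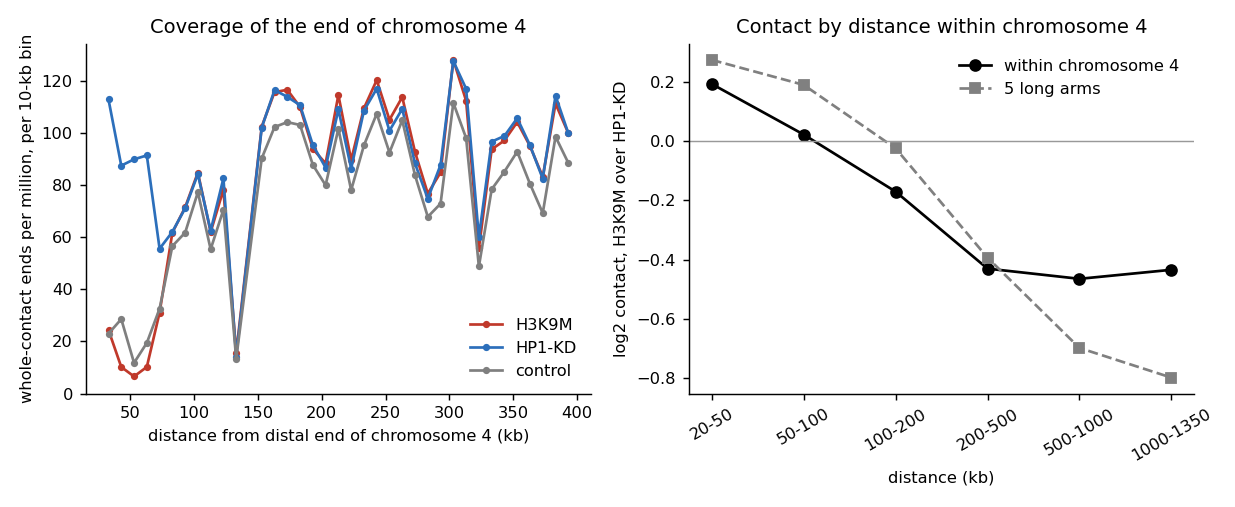
Left, whole-contact ends per 1000000 and 10-kb bin against the distance from the distal end of chromosome 4 in kb for the 3 maps; right, log2 ratio of H3K9M over HP1-KD by distance within chromosome 4 and on the 5 long arms. The 4 bins nearest to the end hold 87.4 to 113 ends per 1000000 in HP1-KD and 6.55 to 24.3 in H3K9M, and the ratio within chromosome 4 levels off near -0.43 to -0.46 from 200 kb on.

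The ends of chromosomes 4 and X were covered differently in the maps, before any ratio of their contacts. The last 4 used bins of chromosome 4, 4:1280001-1320000, held 4.63 to 13.7 times more whole-contact ends per 1000000 in HP1-KD than in H3K9M. In 4:1290001-1300000 there were 6.55 ends per 1000000 in H3K9M, 89.8 in HP1-KD and 11.8 in control. In X:60001-70000 there were 2.75 in H3K9M, 63.5 in HP1-KD and 4.30 in control. Over the distal 100 kb, HP1-KD exceeded H3K9M 7.27-fold on X and 2.65-fold on chromosome 4, and on 2L, 2R, 3L and 3R the fold lay between 0.91 and 1.02. Within these sums the last bins of 2R and 3R were also unequal, with 2.65-fold and 2.41-fold more ends in HP1-KD. For X the summed ends per 1000000 were 28.1 in H3K9M, 204 in HP1-KD and 24.2 in control, and for chromosome 4 they were 215.5, 570.0 and 233.5, so HP1-KD stood apart at both ends. HP1-rescue embryos had 220.3 on X and 603.7 on chromosome 4, so the high coverage of these ends was also present with the HP1 transgene. The median over all chromosome 4 bins was 95.2 in H3K9M and 96.7 in HP1-KD.

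Contact of chromosome 4 with the arms averaged 0.0389 in H3K9M, 0.0428 in HP1-KD and 0.0376 in control, a log2 ratio of -0.14. It was negative for 2L, 2R, 3L and 3R, from -0.26 (3R) to -0.14 (2L), and 0.11 for X. Without the 25 bins of unequal coverage the pooled ratio was the same (-0.14), with -0.30 on 2R, -0.22 on 3R, -0.09 on 2L, -0.05 on 3L and 0.11 on X. Without balancing it was -0.47 over all bins and -0.15 without those 25. With pericentromeric regions the values were 0.243, 0.249 and 0.252, a ratio of -0.04 that ran from -0.14 on 2R to 0.03 on 2L and was 0.054 with contacts under 20 kb left out of the total.

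By position, chromosome 4 contact was lower in H3K9M over the proximal arms. Between 2 and 5 Mb from the border it was 0.0495 in H3K9M, 0.0635 in HP1-KD and 0.0479 in control (log2 ratio -0.36), and between 5 and 10 Mb it was 0.0254, 0.0301 and 0.0208 (-0.24). Between 10 and 15 Mb it was 0.0172, 0.0162 and 0.0120 (0.09). The proximal values were the same without the 25 bins (-0.36 and -0.24), and the distal ones depended on them, with 0.18 in place of -0.04 at 15 to 20 Mb. Without those bins the ratio thus also passed from below 0 in the proximal to above 0 in the distal arm, with the deposited total.

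Of the 116 windows, 33 had less contact with chromosome 4 in H3K9M by 0.25 or more (28.4%) and 9 had more (7.76%). Without the 25 bins the counts were 24 and 21, and 20 and 8 windows were in both. The window 2R:8000001-9000000 had 0.0343 in H3K9M, 0.0596 in HP1-KD and 0.0468 in control (log2 ratio -0.80, and -0.79 without the bins). The distal windows 3L:1-1000000 (-0.79) and 3R:28000001-29000000 (-0.80) went to -0.03 and -0.36 without them. At the upper end, X:12000001-13000000 had 0.0134, 0.0103 and 0.00880 (0.38, and 0.47 without the bins). The ratios of X:10000001-11000000 (0.50) and 3L:5000001-6000000 (0.44) were below 0 under other settings, -0.04 without bins of low coverage and -0.02 without balancing.

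Along chromosome 4 itself 24 of 130 bins had more contact with the arms in H3K9M, with a median log2 ratio of -0.12, and 47 had more contact with pericentromeres, with a median of -0.06. The bin 4:540001-550000, at the end of zfh2, a zinc finger homeobox gene, and at Tdg, had 0.0499 in H3K9M, 0.0761 in HP1-KD and 0.0637 in control with the arms (log2 ratio -0.61, counting interval -0.69 to -0.52). Adjacent bins of Cadps, a gene for vesicle priming, were the highest and the lowest. These were 4:1260001-1270000, with 0.0589, 0.0476 and 0.0467 (0.31), and 4:1270001-1280000, with 0.0720, 0.132 and 0.0758 (-0.87), and the second lies beside the bins of unequal coverage. For contact with pericentromeres, 4:280001-290000, in Syt7, a synaptotagmin gene, had 0.432, 0.568 and 0.575 (-0.40, interval -0.51 to -0.28). There HP1-KD was close to control and H3K9M was lower. The bin 4:790001-800000, without a gene, had 0.331, 0.220 and 0.212 (0.59, interval 0.37 to 0.80), so that H3K9M alone was higher. The other extreme bins were thinly covered or unequal between the maps: 4:20001-30000, without a gene, had 0.0353, 0.0317 and 0.0297 with the arms on 71 and 139 whole contacts in H3K9M and HP1-KD (0.15), and 4:1280001-1290000 (0.59) and 4:1300001-1310000 (-1.73), which marked the ends of the list for pericentromeres, are 2 of the 4 end bins.

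The 16 chromosome 4 genes that were looked up have their starts in 13 bins, of which 2 had more contact with the arms in H3K9M, with a median log2 ratio of -0.12 equal to that of all 130 bins. The bin of ci, the transcription factor of Hedgehog signalling, had 0.0245 in H3K9M, 0.0305 in HP1-KD and 0.0284 in control (-0.31, counting interval -0.48 to -0.15). The bin of toy, a Pax6 gene of eye development, had 0.0341, 0.0412 and 0.0346 (-0.27, interval -0.39 to -0.16). The bin shared by ey, the other Pax6 gene, and myo, a TGF-beta ligand, had 0.0376, 0.0375 and 0.0376 (0.00, interval -0.11 to 0.11). H3K9M was below both other maps for ci, near control for toy, and alike with both for ey.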

How the data were processed

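The authors pooled Hi-C libraries by group and deposited 1 map per group, whose signal is the iteratively corrected contact of each pair of 10-kb bins (HiC-Pro 2.11.1 and dm6 per the submitters' processing notes), each map with the same total. Single libraries were not analysed here, and columns of per-sample values without a sample numbered 0. The map of HP1-rescue embryos was read at single places chosen after seeing the data, the map of HP1 RNAi in S2 cells was not used here, and the S2 control map, assigned by its name, gave alternative boundaries only.

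Whole contacts were recovered by solving 1 factor per bin, and 100% of the values under 20 came out whole within 0.02. Bins with at least 100 non-zero pairs in each of the 3 embryo maps were used. Pericentromeric regions were runs of 100-kb windows with a running mean over 5 windows of 30% or more masked bases. Boundaries had a prominence of 0.2 in a 100-kb diamond. Intervals are 95% exact (Clopper-Pearson) intervals for the ratio of whole contacts, centred on the ratio of balanced values, and PCR copies are not told apart from molecules.

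Named items were the 5 boundaries with the largest difference in each direction among those with 300 or more contacts per diamond, the 3 highest and lowest windows per measure, the 2 highest and lowest chromosome 4 bins, and fixed gene lists. Members and lists were chosen with earlier results of these data known. The 2L blocks, the strong 100-kb pairs and the bins of unequal coverage were chosen after seeing the data. Alternatives were equal depth, no balancing, other totals, other bins, borders, diamonds and boundaries, and leaving out each arm. Recovery, decay and depth measures were tested on simulated data. Python 3.11.15, NumPy 2.4.6, pandas 2.3.3, SciPy 1.17.1 and matplotlib 3.10.9 were used.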

Additional observations from a re-analysis of the deposited data

How the results depend on the processing

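No paired analysis was possible because each group is 1 pooled map and no test was made. Of 229 values of the main comparisons under alternatives, 182 stayed within the spread over arms (arms are not replicates; within chromosome 4 the counting interval, and for counts a factor of 1.5), 46 moved further and 1 reversed. A value counts as reversed only where the main value exceeded that spread; 4 changed sign in all, among them the small ratios of arms with other pericentromeres and of chromosome 4 with pericentromeres (0.0080 without 2R). Of 243 values of single windows and boundaries 184 stayed, 57 moved and 2 reversed. The direction of the exponent, of contact at 20 to 100 kb and 0.5 to 2 Mb, of own-arm pericentromeric contact and of mean boundary depth held under every alternative run. The exponent differed by -0.19 at 200 kb to 2 Mb.

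With contacts under 20 kb out of the total, the log2 ratio was 0.34 at 20 to 100 kb, -0.66 at 0.5 to 2 Mb and 0.11 at 10 Mb or more, 0.18 between pericentromeres, 0.13 between arms and other pericentromeres, -0.37 with the own one, 0.054 for chromosome 4 with pericentromeres and -0.012 within it, 17 windows had more contact with chromosome 4, and 115 passed 0.25 at 20 to 100 kb. With scaling to contacts between chromosomes, these were -0.055 between pericentromeres (reversed), -0.11 and -0.60 for arms with other and own ones, and -0.28 (arms), -0.18 (pericentromeres) and -0.25 (within) for chromosome 4. The window counts became 17 higher and 16 lower for pericentromeres, 2 and 56 for chromosome 4, and 0 at 20 to 100 kb. With a minimum scaled to depth, 12 strong pairs with contact in both maps were at least 4-fold higher in HP1-KD.

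Without balancing, the ratio was 0.22 at 20 to 100 kb, 0.18 between pericentromeres, -0.47 for chromosome 4 with arms and -0.13 within it, 59 windows were higher for pericentromeres, 0 higher and 62 lower for chromosome 4, and the boundary difference was 0.17 with 43 shallower. Without bins of low coverage it was 0.17 with 53 shallower, and 5 windows were higher for chromosome 4; a 200-kb diamond gave 0.20, a prominence of 0.5 gave 0.29 with 3 shallower, and S2 boundaries gave 0.16 with 47 shallower. Without 3L the ratio between pericentromeres was 0.034, and the windows lower for pericentromeres numbered 3 without 3L, 3 without 3R and 4 with the study's borders; without X, 5 windows were higher for chromosome 4. Without the bins of unequal coverage, chosen after seeing the data, the ratio within chromosome 4 was -0.11 and 21 windows were higher with it. Single windows reversed with chromosome 4 at X:10000001-11000000 without low-coverage bins (-0.042) and at 3L:5000001-6000000 without balancing (-0.019). The causes were not tested. Depth limits H3K9M most, where a window rests on 176 to 871 whole contacts with chromosome 4 among those named.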

Other observations

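Contact between the distal 100-kb ends of the chromosomes averaged, after balancing, 7.03 per bin pair in H3K9M, 5.27 in HP1-KD and 8.14 in control. Of the 15 pairs of ends, 9 were higher in H3K9M than in HP1-KD. Without balancing the order of these 2 maps was the opposite. Whole contacts between ends numbered 72.3 per 1000000 in H3K9M, 199.2 in HP1-KD and 86.1 in control, 2.75-fold more in HP1-KD than in H3K9M. The direction thus depended on balancing. For the ends of X and 4 the balanced contact was 57.3, 38.0 and 64.9. The whole contacts behind these values were 414, 11579 and 2791, or 9.41 times more per 1000000 in HP1-KD than in H3K9M. Both ends hold bins of unequal coverage. For the ends of 3L and 3R, whose summed coverage differed little between the maps, the balanced contact was 5.63 in H3K9M, 2.61 in HP1-KD and 10.7 in control on 487, 684 and 3049 whole contacts, and for 2L and 2R it was 2.59, 2.48 and 3.72.

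Outside the chromosome ends, a few other bins were covered unequally. The histone gene cluster bin 2L:21420001-21430000 held 9.73 whole-contact ends per 1000000 in H3K9M, 20.01 in HP1-KD and 9.81 in control. In the opposite direction, 2R:5570001-5580000 held 14.5, 1.68 and 1.11, and 2R:5100001-5110000 held 219.6, 102.4 and 103.3. In these 3 bins 1 of the maps departed from control 2-fold or more and the other by less.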
